A study of Mus musculus with 6 samples.

Results

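The baseline transcriptome of N2A cells was read from 3 control arrays of a series of 6. N2A (neuro 2A) is a mouse neuroblastoma cell line, and neuroblastoma is a tumour of the sympathoadrenal branch of the neural crest, the embryonic cells that also give sympathetic neurons and adrenal chromaffin cells. The control cells had been transiently transfected with a non-targeting short hairpin RNA (shRNA) vector, and total RNA was taken 2.5 days later. The other 3 arrays of the series, from cells given an shRNA against Pou3f3, were not used. The members were chosen as the 19938 gene symbols with at least 1 array row that names a single gene, and each symbol took its row with the highest mean over the 3 control arrays.

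All 3 arrays came from 1 cell line carrying a vector, and the sources used here do not give the share of cells that took it up. They therefore show transfected cultures rather than untouched ones. With a single group of 3 arrays there was no contrast to test, so everything below is a description with the spread between arrays. A level is a log2 value after robust multi-array averaging (RMA). The rows that measure different genes differ in how strongly they bind, so a rank is a rank of array values and not of RNA amounts. A percentile of 100 is the highest of the 19938 symbols.

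Cells of sympathetic and chromaffin type are defined by a small set of functions. Transcription factors such as HAND2, PHOX2A, GATA2, GATA3 and ISL1 set the lineage. A chain of enzymes turns tyrosine into dopamine, noradrenaline and, in chromaffin cells, adrenaline. Vesicular monoamine transporters load the product into dense core vesicles that are packed with granins, the acidic proteins encoded by Chga, Chgb and the Scg genes.

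The regulatory sequence of several of these genes is shown first because it can be set beside their levels. All the genes shown hold the motif TGACG, which many promoters of the factor and catecholamine lists lack, as counted further on. The Dbh stretch was placed to include its match. Each line gives 100 bases of mouse sequence from RefSeq (build GRCm38.p6), on the strand of the gene, 5′ to 3′. Except for Dbh, the last base is the one just before the annotated start. Capitals mark TGACG or its reverse complement CGTCA, and where both overlap they form TGACGTCA, the cyclic AMP response element.
Chga, chr12:102554841-102554940, plus strand: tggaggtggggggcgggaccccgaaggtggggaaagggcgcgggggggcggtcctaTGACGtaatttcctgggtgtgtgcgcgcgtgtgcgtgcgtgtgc
Chgb, chr2:132781542-132781641, plus strand: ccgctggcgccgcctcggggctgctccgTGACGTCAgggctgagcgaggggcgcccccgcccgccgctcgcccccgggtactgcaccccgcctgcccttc
Scg2, chr1:79440027-79440126, minus strand: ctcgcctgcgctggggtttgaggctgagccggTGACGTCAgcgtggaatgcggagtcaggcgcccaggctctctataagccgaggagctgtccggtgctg
Scg3, chr9:75684057-75684156, minus strand: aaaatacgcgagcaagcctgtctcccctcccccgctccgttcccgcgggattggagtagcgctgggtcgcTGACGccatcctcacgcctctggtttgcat
Th, chr7:142899996-142900095, minus strand: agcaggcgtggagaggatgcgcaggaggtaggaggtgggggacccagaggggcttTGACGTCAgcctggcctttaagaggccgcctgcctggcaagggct
Hand2, chr8:57320883-57320982, plus strand: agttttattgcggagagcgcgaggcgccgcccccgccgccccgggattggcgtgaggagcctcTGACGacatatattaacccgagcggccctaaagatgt
Dbh, chr2:27165265-27165364, plus strand, 242 to 143 bases before the start: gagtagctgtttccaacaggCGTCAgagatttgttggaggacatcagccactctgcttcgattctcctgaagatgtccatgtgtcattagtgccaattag

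Array background was set from the olfactory receptor genes (Olfr), taken as the 1015 symbols with Olfr and a number alone, which sensory neurons of the nose use and most other cells do not. A symbol was called above the Olfr reference when its level on each array exceeded that array's 95th percentile of Olfr symbols, which was 7.45, 7.40 and 7.42. Of all 19938 symbols, 13171 were called, or 66.1%. This reference was lenient, because genes of tissues that should be absent also passed it. A stricter one was therefore added after these values had been seen, from 49 measured genes of hepatocytes, erythroid cells, skeletal muscle, macrophages and germ cells. Its 95th percentile was 8.50, 8.44 and 8.45, and 50.1% of all symbols exceeded it on each array. A wider set with endothelial, fibroblast and epithelial genes had been looked at as well. Each share below is to be read against these shares of all symbols. A gene said to lie between the references passed the lower on each array but did not pass the higher on each.

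Control replicate 1 stood apart from the other 2 arrays. Among the 13171 symbols above the Olfr reference the median absolute difference was 0.121 between arrays 1 and 2 and 0.123 between 1 and 3. It was 0.066 between arrays 2 and 3. A difference over 0.5 was seen for 318, 228 and 3 symbols in the same order. Some of the counts below, but not all, are therefore also given without it.

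Lineage transcription factors ranked high. Of 18 measured sympathoadrenal transcription factor genes, 16 were above the Olfr reference and 14 above the other-tissue one. The median percentile of the list was 75.8. Hand2, a basic helix-loop-helix factor of sympathetic neurons, had levels of 12.46, 12.61 and 12.57 on the 3 arrays (mean 12.55 ± 0.08, SD, n = 3), which is percentile 96.1. Gata2, a zinc finger factor, had 11.88, 11.98 and 11.92. Phox2a, the homeobox factor needed for noradrenergic neurons, had 11.18, 11.49 and 11.36.
These 3 genes lay far above both references on every array, and for each the lowest value was that of replicate 1. Isl1, a LIM homeobox gene, read 11.35, 11.24 and 11.30. Gata3 read 10.80, 10.90 and 10.77, and Insm1, a zinc finger gene of neuroendocrine cells, had a mean of 10.93. The neighbours Phox2a, Isl1 and Sox4 (mean 11.23) overlapped between arrays, so their order was not resolved. Hand1 (8.32) and Eya1 (8.13) sat between the references, although Hand1 passed the higher on replicate 3 (8.462 against 8.452). Tfap2b (6.95) and Dach1 (6.63) were below the lower one.

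The catecholamine genes were split between strong and weak members. Slc18a2, the vesicular monoamine transporter of neurons, read 12.94, 12.64 and 12.84 and stood at percentile 97.3. Dbh, dopamine beta-hydroxylase, which makes noradrenaline, read 12.21, 12.64 and 12.32 (mean 12.39 ± 0.22). Th, tyrosine hydroxylase, the rate-limiting step, read 9.67, 10.04 and 10.00, at percentile 66.0.
All 3 genes were above both references, and Th and Dbh were lowest on replicate 1 while Slc18a2 was highest there. Ddc, the decarboxylase that lies between TH and DBH in the chain, read 8.27, 7.92 and 7.89, between the references. Pnmt, which converts noradrenaline into adrenaline, had a mean of 7.08, below both. The noradrenaline transporter gene Slc6a2 (7.45) lay just above the lower reference, and the monoamine oxidase genes Maoa (6.16) and Maob (5.72) were under it. Of the cofactor genes, Qdpr (12.11) and Gch1 (10.74), which regenerate and make tetrahydrobiopterin, were higher than Spr (9.04) and Pts (8.12). In all, 12 of 15 members were above the Olfr reference and 8 above the other-tissue one, and their median percentile of 50.9 was that of the whole array.

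The dense core vesicle list was divided as well. Of 17 measured genes, 9 were at or above percentile 90 and 6 were below the Olfr reference, so that the share above it (64.7%) was near that of all symbols while the median percentile was 91.2. Chgb read 13.90, 13.74 and 13.76, and Chga read 13.37, 13.55 and 13.49. Scg3 read 13.16, 12.93 and 12.96.
Chgb and Chga, the main granins, did not overlap between arrays, nor did Chga and Scg3, so this order held on each array. Vgf (12.75), Pcsk1n (12.65), Scg2 (11.89) and Scg5 (11.85) completed the strong granins, together with the processing enzymes Pam (11.97), which amidates peptides, and Cpe (11.90), a carboxypeptidase. Npy, a peptide released with noradrenaline, followed at 10.15. The weak members were mostly peptide genes, namely Adcyap1 (7.21), Penk (6.94), Vip (6.64), Gal (6.53) and Tac1 (4.93), with the convertase gene Pcsk1 at 6.81. Sst, at 8.25, lay between the references.

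**Figure D1:**
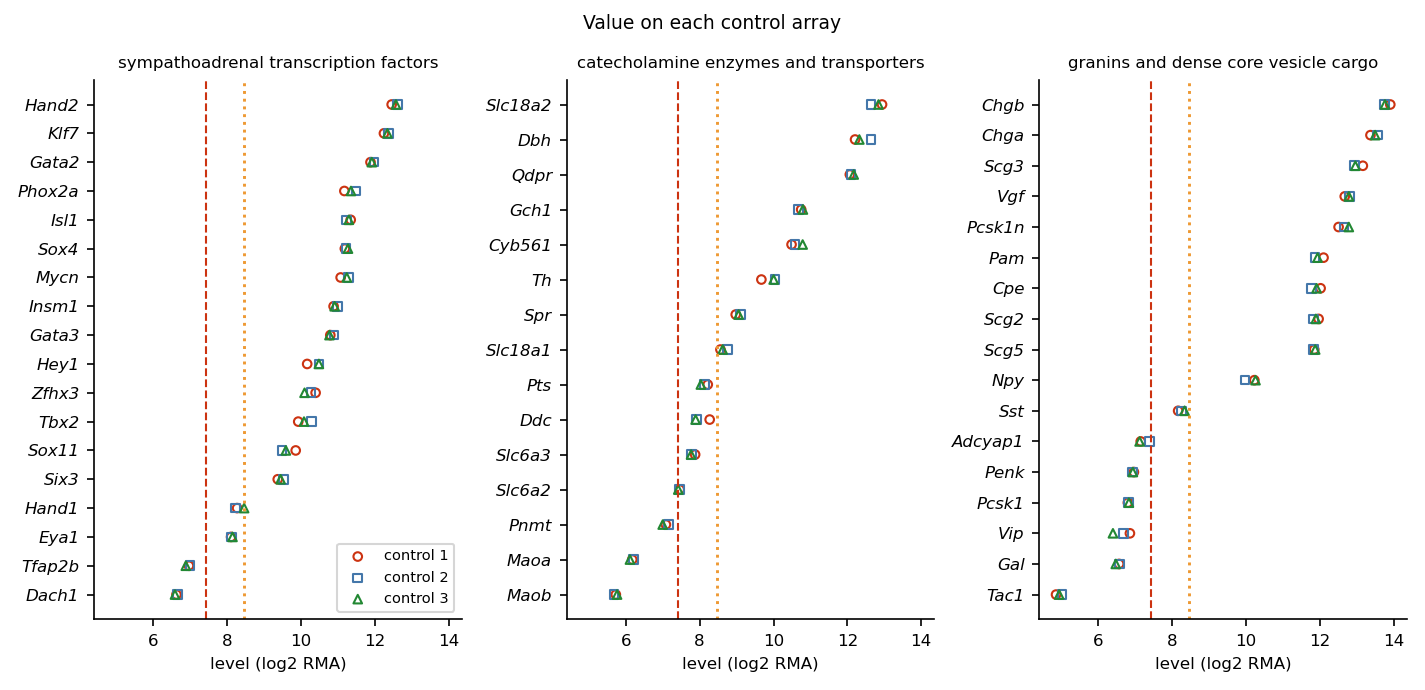
Log2 RMA level on each control array (x axis; circles, squares and triangles for replicates 1, 2 and 3) of every measured member of the sympathoadrenal, catecholamine and dense core vesicle lists (y axis). The dashed line is the Olfr reference and the dotted line the other-tissue reference, each as the mean of the 3 arrays; the arrays lie close together compared with the range from Tac1 at 4.93 to Chgb at 13.80.

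The TGACG motif printed above was looked for in the promoters of the lists because several of these vesicle genes are textbook targets of cyclic AMP signalling. It was chosen after the levels were known, as 1 of 9 motifs looked at, and the shares are a description. The promoter window ran from 250 bases before the start to 50 after it, both strands were read, and only the 12935 symbols with 1 listed start were used. TGACG was in 10 of 12 promoters of the vesicle list, against 25.1% of all promoters. In 8 of them it lay in the 100 bases before the start, where 14.1% of all promoters had it. The full TGACGTCA was in 4 of the 12, against 2.47% of all. The 10 included 6 genes above the Olfr reference (Chga, Chgb, Scg2, Scg3, Scg5 and Sst) and 4 below it (Pcsk1, Vip, Tac1 and Gal). The motif was therefore found in strong and weak members alike. It was in 5 of 9 catecholamine promoters, 3 of 12 of the sympathoadrenal factors, 8 of 22 proliferation promoters and 19 of 38 ribosomal protein promoters. None of 11 pan-neuronal promoters had it.

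Genes shared by most neurons were among the highest on the array. Of 28 pan-neuronal genes, 25 were above the Olfr reference, 24 above the other-tissue one and 17 at or above percentile 90. Map1b, a microtubule-associated protein of growing axons, read 14.11, 14.08 and 14.05 and stood at percentile 99.8. Stmn2, a tubulin-binding protein of growth cones, read 13.90, 13.71 and 13.76, and Snap25, a protein of the synaptic fusion machinery, read 13.54, 13.59 and 13.54.
The values of these 3 genes on the 3 arrays spanned less than 0.20. Syt1 (13.42), Uchl1 (13.41), Ncam1 (13.32) and Tubb3 (12.21) were also high, as was Stmn3 at 13.28, although its other row read 6.29. The intermediate filament genes diverged. Prph, peripherin, which marks peripheral neurons, read 13.33, 13.38 and 13.44, and Ina read 12.95, 12.97 and 12.89. Nefh followed at 11.01.
Nefm (6.24) and Nefl (6.51), the medium and light neurofilament subunits, were below the Olfr reference on every array, as was Dcx (6.48), doublecortin of migrating neurons. Rbfox3, which encodes the mature neuron marker NeuN, read 7.69, between the references. Eno2, neuronal enolase, read 11.82 on replicate 1 against 12.47 and 12.37 on the others.

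The cholinergic genes held 1 receptor subunit near the top of the array. Chrna3, the main alpha subunit of nicotinic receptors in autonomic ganglia, read 13.32, 13.45 and 13.34. Its usual partner Chrnb4 read 8.25 and Chrna5 read 7.53, while Chrnb2 (10.81) and Chrna7 (10.73) were higher. Ache, acetylcholinesterase, read 11.63. Chat (7.11) and Slc5a7 (6.65), which make acetylcholine and take up choline, were below the Olfr reference. The list had 9 of 14 members above it, and 6 above the other-tissue reference.

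Of 24 neuroblastoma genes, 20 were above the Olfr reference and 19 above the other-tissue one. Ret, the receptor of glial cell line-derived factors, was the highest with 13.69, 13.69 and 13.66. Its co-receptor genes read 10.58 for Gfra1, 8.47 for Gfra2 and 7.42 for Gfra3. Ngfr, the low-affinity neurotrophin receptor, read 12.53, Ntrk3 read 9.91 and Ntrk2 read 6.87.
The oncogene Myc (12.44, 12.54 and 12.52) and Mycn (11.08, 11.28 and 11.24) were both high. Alk, a receptor kinase mutated in familial neuroblastoma, read 10.15 ± 0.04. Gpc2 (7.47) and St8sia1 (7.47) were not above the Olfr reference on each array.

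Genes of the undifferentiated neural crest were intermediate. Of 15, 13 were above the Olfr reference but 6 above the other-tissue one, with a median percentile of 47.1. Sox9 led with 11.82, 11.77 and 11.76. Sox10 (8.19), Foxd3 (7.97) and Twist1 (7.71) lay between the references, and Snai2 (7.17) and Tfap2a (6.51) below them. The list of the mesenchymal type of neuroblastoma had 12 of 19 members above the lower reference and 6 above the higher, with Vim, vimentin, at 14.26, 14.27 and 14.27 and Fn1, fibronectin, at 12.76. Prrx1 (6.70), a factor of that cell state, Cd44 (6.95) and Runx1 (7.12) were below both. Of 8 Schwann cell genes, Pmp22 stood at 14.20 and Cdh19 at 4.51, with 5 above the lower reference and 2 above the higher.

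**Figure D2:**
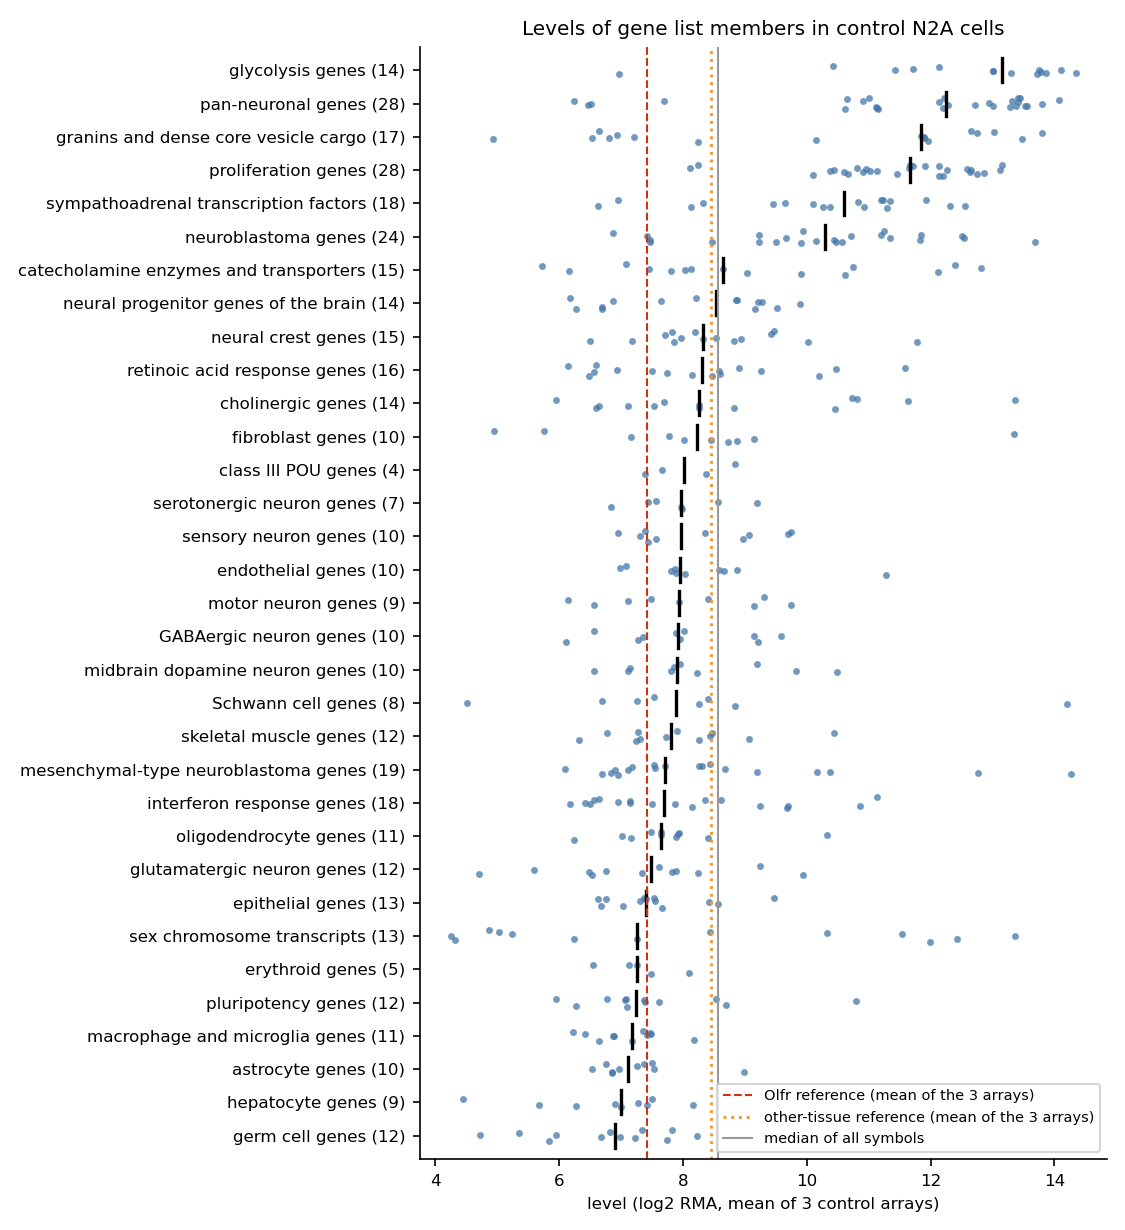
Mean log2 RMA level over 3 control arrays (x axis) of each measured member (points) of 33 gene lists (y axis, number measured in parentheses), ordered by their median (black bar). Glycolysis, pan-neuronal, dense core vesicle, proliferation, sympathoadrenal and neuroblastoma lists have medians above 10, and the medians of all other lists lie between 6.90 and 8.65.

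Lists of other neurons and glia held both low and high members. The median levels of the glutamatergic, GABAergic, midbrain dopamine, serotonergic, sensory and motor neuron lists ran from 7.48 to 7.97. Together their 56 genes had 34 above the Olfr reference (60.7%) and 15 above the other-tissue one (26.8%), both under the shares of all symbols. Neurod6 (4.72), Neurod1 (5.59), Tbr1 (6.54) and the glutamate transporter gene Slc17a6 (6.48) were below the Olfr reference, as was Gad2 (6.56). Their counterparts Slc17a7 (7.62), Gad1 (8.02) and the vesicular transporter gene Slc32a1 (7.88) lay between the references. Camk2a (9.94), Nrgn (9.24), Dlx1 (9.59), Dlx2 (9.21) and Lhx6 (9.15), the 5 glutamatergic and GABAergic members above both references, are genes of forebrain neurons. The highest member was Nr4a2, an orphan nuclear receptor, at 10.49.
The dopamine transporter gene Slc6a3 read 7.81 and the serotonin-making Tph2 read 7.98, both between the references. Brain progenitor genes had 9 of 14 members above the lower reference and 7 above the higher, with Otx1 at 9.90, Nes at 8.86 and Sox2 at 6.28. Astrocyte genes had 3 of 10 and 1 of 10, with Aqp4 at 6.75 and Gfap at 7.25. Oligodendrocyte genes had 8 of 11 and 1 of 11, and Cnp was the single one above the higher reference, at 10.33.

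Lists of cells outside the neural lineage differed among themselves. Of 11 macrophage and microglia genes, 1 (Cx3cr1, at 8.18) was above the Olfr reference and Ptprc, the pan-leukocyte gene, read 6.22. Without replicate 1 the count was 5. Alb, serum albumin, read 5.68, and 2 of 9 hepatocyte genes passed. The germ cell list had 3 of 12, the erythroid list 2 of 5 and the skeletal muscle list 7 of 12.
These lists define the higher reference, so their share above it is set by construction. Among lists that do not, 4 of 10 endothelial, 4 of 10 fibroblast and 2 of 13 epithelial genes exceeded it. Above the Olfr reference were 8 of 10, 7 of 10 and 6 of 13, so that of these only the epithelial share was under the 66.1% of all symbols. The highest members were Fbln1, an extracellular matrix gene, at 13.28, 13.34 and 13.44, and Egfl7, a secreted endothelial factor, at 11.28. Pdgfrb (9.15), Col1a1 (8.88), Col1a2 (8.73), Pecam1 (8.87), Vwf (8.66) and Esam (8.58), which are fibroblast and endothelial genes, were also above both references. Lum (4.96), Postn (5.76), Epcam (6.75) and Cdh1 (7.31) were below the Olfr reference. Whether any of these RNAs came from other cells was not tested.

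Proliferation and glycolysis genes ranked high. All 28 measured proliferation genes were above the Olfr reference, 26 were above the other-tissue one and 12 were at or above percentile 90. Pcna, the sliding clamp of DNA replication, read 13.07, 13.26 and 13.12. Ccna2, cyclin A, read 13.03, 13.22 and 13.11, and Cdk1, the mitotic kinase, read 13.01, 12.77 and 12.82.
The highest array differed among these genes, so no common shift was seen. Top2a read 12.79, 12.54 and 12.45, with a second row at 5.97. The inhibitor genes ranged from Cdkn1b (12.14, second row 8.96) and Cdkn2a (10.10) to Cdkn1c (8.24) and Cdkn2b (8.11), the last pair being the 2 members under the higher reference. Of 14 glycolysis genes, 13 were above both references and 10 at or above percentile 90. Ldha, lactate dehydrogenase A, read 14.26, 14.42 and 14.35, and Aldoa read 13.98, 14.18 and 14.16. Ldhb, the other subunit, was the exception at 6.97. The glucose transporter genes Slc2a3 (13.76) and Slc2a1 (13.00) were high as well. The median glycolysis gene was 0.20 lower on replicate 1 than on the mean of the other arrays.

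Promoters of proliferation genes often held the CCAAT box, which binds the factor NF-Y. It was found in 18 of 22 of them, against 38.7% of all promoters, and in 15 it lay in the 100 bases before the start, where 21.5% of all promoters had it. The stretches of 4 genes of mitosis are printed as examples with several matches, and capitals mark CCAAT or its reverse complement ATTGG.
Ccnb2, chr9:70421555-70421654, minus strand: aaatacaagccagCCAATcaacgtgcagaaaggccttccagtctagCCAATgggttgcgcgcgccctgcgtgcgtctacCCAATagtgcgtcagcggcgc
Top2a, chr11:99024190-99024289, minus strand: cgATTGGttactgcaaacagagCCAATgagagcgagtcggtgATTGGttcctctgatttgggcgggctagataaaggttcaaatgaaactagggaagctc
Cdk1, chr10:69352913-69353012, minus strand: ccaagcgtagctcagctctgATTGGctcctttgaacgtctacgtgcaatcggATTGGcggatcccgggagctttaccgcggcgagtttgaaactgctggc
Cdc20, chr4:118437344-118437443, minus strand: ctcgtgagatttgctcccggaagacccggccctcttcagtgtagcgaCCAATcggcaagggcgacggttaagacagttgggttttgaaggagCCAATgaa
In Ccnb2, cyclin B2 (level 12.64), the matches began 87, 54 and 21 bases before the start. Top2a had 3 within the printed stretch. Cdk1 and Cdc20 (level 10.38), an activator of the anaphase-promoting complex, had 2 each.

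The 30 highest symbols were mostly genes of translation, the cytoskeleton and energy metabolism. They held 8 ribosomal protein genes, such as Rplp0 (14.37) and Rps6 (14.33), and the elongation factor genes Eef1a1 (14.71, 14.69 and 14.69) and Eef2 (14.26). Cytoskeletal genes were Actb (14.55), Tuba1a (14.31), Vim and Tubb5 (14.14). Energy genes included Atp5b (14.37), Got2 (14.38) and Ldha, and the amino acid genes were Asns (14.33), asparagine synthetase, and Slc3a2 (14.16), the heavy chain of amino acid exchangers. Rn7sk, the small RNA that holds the elongation factor P-TEFb, read 14.58, 14.64 and 14.67.
The first place went to Baiap2l1, an actin regulator, at 14.70, but its 3 rows spread down to 12.49. Kcnma1, a potassium channel gene just outside at 14.11, likewise had a second row that read low. In 25 of the 29 pairs of neighbours the values overlapped between arrays, so most of the order was not resolved. When rows that name several genes were ranked too, they took 26 of the 30 highest places and 4 of the named 30 remained, so the list shows the highest genes with a row of their own.

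The 30 lowest symbols ran from 3.44 to 3.82. They held 8 Olfr genes, 4 vomeronasal receptor genes (Vmn), 10 miRNA genes and 8 others, among them Taar8c (3.64), a trace amine receptor, and Omt2a (3.76). All 29 neighbouring pairs overlapped between arrays. Rows assigned to miRNA genes were low as a class, with a median percentile of 14.3 over 297 symbols. Such rows can read precursor RNA, and mature miRNAs were not analysed here.

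**Figure D3:**
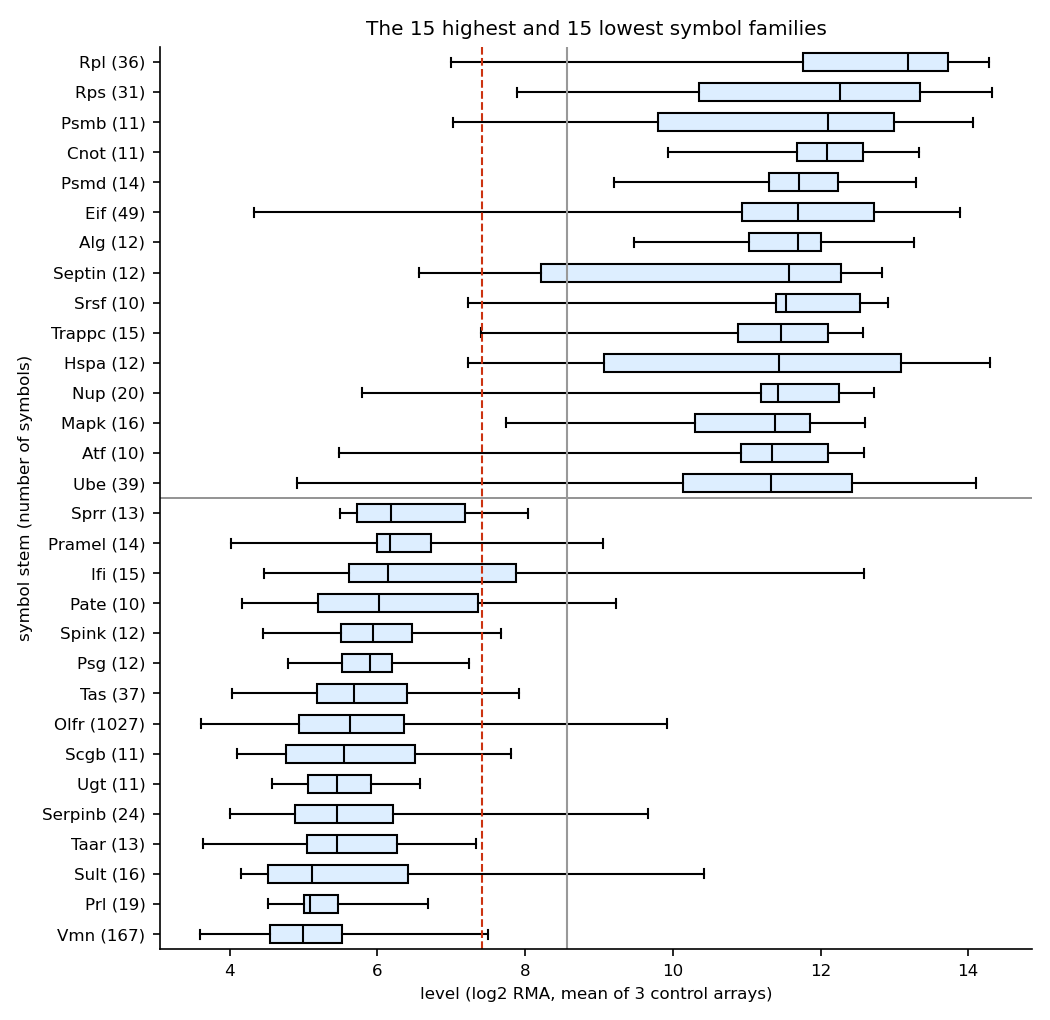
Mean log2 RMA level over 3 control arrays (x axis) of the members of the 15 highest and 15 lowest symbol families (y axis, number of symbols in parentheses), with box for the quartiles, centre line for the median and whiskers to the lowest and highest member. The grey line is the median of all symbols and the dashed line the Olfr reference; the highest median is that of Rpl, at 13.18, and the lowest that of Vmn.

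Symbols were also grouped by the letters before the first digit, which gave 236 families of at least 10 members. Such a family is a shared name and can take in genes of other function. Rps23rg1 (7.89), the lowest Rps symbol, is an example. A family median is thus not that of the named proteins alone. The families named for large and small ribosomal proteins (Rpl and Rps) led with median percentiles of 98.6 and 94.4. The proteasome core (Psmb, 93.2) and lid or base (Psmd, 89.8), the mRNA deadenylase complex (Cnot, 93.2), the initiation factors (Eif, 89.8) and glycosylation enzymes (Alg, 89.7) followed. Splicing factors (Srsf), vesicle tethers (Trappc), heat shock proteins (Hspa), nucleoporins (Nup) and ubiquitin conjugation genes (Ube) were also among the 15 highest.
The low outliers of these families included genes known from other tissues and a Y-linked gene. Rpl3l, a muscle form of a ribosomal protein, read 6.96, 6.97 and 7.06. Psmb11, the proteasome subunit of the thymic cortex, read 7.01, 6.91 and 7.17. Eif2s3y, on the Y chromosome, read 4.35, 4.34 and 4.28.
Each of these was below the Olfr reference on every array. All 48 Mrpl and 29 Mrps symbols, which encode the mitochondrial ribosome, and all 10 Mcm symbols, mostly of the replication helicase, were above both references.

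Families at the bottom encode receptors of other sense organs, placental hormones and enzymes of liver or epithelia. The vomeronasal receptors (Vmn, 167 symbols) had the lowest median percentile, 3.78, and 0 of them were above the Olfr reference. Next came the prolactin family (Prl, 4.30, 0 of 19 above), sulfotransferases (Sult, 4.77), trace amine receptors (Taar, 6.84), B-type serpins (Serpinb, 6.85), glucuronosyltransferases (Ugt, 6.88), secretoglobins (Scgb, 7.58), Olfr (8.22, over 1027 symbols with suffixed names included) and taste receptors (Tas, 8.66).
Some low families also held high members. Sult4a1, a sulfotransferase-like gene of the brain, read 10.20, 10.55 and 10.54. Ifi30, a lysosomal thiol reductase, read 12.61, 12.54 and 12.63 in the interferon-inducible family (Ifi), whose median was 6.14 and of which 4 of 15 were above both references. Cyp51, a cholesterol synthesis enzyme, read 12.46, 12.13 and 12.11, while the median of the 87 Cyp symbols, not among the 15 lowest families, was 6.60 and 8 of them were above both references.
The highest Olfr symbol was Olfr1174 at 9.93, and 42 of the 1015 were above the reference taken from them. The homeobox families Hoxa and Hoxd had 4 of 10 and 3 of 10 members above the Olfr reference and 0 above the other-tissue one.

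Among long noncoding RNAs, 294 of 675 (43.6%) were above the Olfr reference and 122 (18.1%) above the other-tissue one. Malat1, a nuclear speckle RNA, read 12.51, 11.69 and 12.01. Tug1 read 11.75, 11.88 and 11.70, and Gas5, which hosts small nucleolar RNAs, read 11.83, 11.58 and 11.60. Norad, a regulator of Pumilio proteins, read 11.06 ± 0.05. Small nucleolar RNA genes were higher as a class, with 42 of 53 above the Olfr reference, and Snora52 stood at 13.94.

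By chromosome, the X had the lowest share of symbols above the Olfr reference apart from the Y. Of 653 X-linked protein-coding symbols, 333 (51.0%) were above the Olfr reference. The share was 59.9% to 79.6% on single autosomes and 72.4% of the 16884 autosomal symbols counted. Of 9 Y-linked ones, 1 was above it. These counts appear to leave out the Olfr symbols themselves, which raises the autosomal share. Of all 18556 protein-coding symbols, 67.9% were above the reference. Xist, the RNA that coats the inactive X, read 12.23, 11.94 and 11.79. Of the Y-linked genes, Uty (5.25), Usp9y (4.87), Zfy1 (5.03) and Kdm5d (6.25) were below the reference and Sry, at 8.44, between the references. The X partners of Kdm5d and Uty, Kdm5c (11.54) and Kdm6a (10.33), were above both references.

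Other signalling lists gave mixed pictures. Of the class III POU genes, Pou3f1 read 8.84, Pou3f3 read 8.38 (8.37, 8.30 and 8.47), Pou3f2 read 7.66 with a second row at 3.92, and Pou3f4 read 7.39. Pou3f3, the gene targeted elsewhere in the series, was thus at percentile 47.8 and between the references, although it passed the higher (8.45) on replicate 3. Retinoic acid genes had 11 of 16 members above the Olfr reference, led by Stra6, the receptor for retinol-binding protein, at 11.58, with Rarb at 6.94. Pluripotency genes had 4 of 12, with Lin28a at 10.80, Nanog at 7.38 and Pou5f1 at 6.77. Interferon response genes had 10 of 18, with Stat2 at 11.13 and Ifnb1 at 6.49.

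Promoters changed in composition along the order of levels. The 12935 symbols with 1 listed start were split into 10 equal parts by level. The GC box GGGCGG was in 8.50% of promoters in the lowest part and 73.3% in the highest. The TATA box TATAAA went the other way, from 35.3% to 5.10% in the ninth part, but was at 7.19% in the highest. Mean G + C content rose from 40.6% to 62.7%.
The ratio of observed to expected CpG went from 0.195 to 0.817, where expected CpG is the product of the C and G counts over the length. Most of this was reached by the seventh part, and CCAAT stayed between 34.3% and 42.7%. Among the 300 highest symbols TATAAA was in 12.3% (95% exact binomial interval 8.83 to 16.6) and among the 300 lowest in 39.0% (33.4 to 44.8). Of all promoters 12.9% had it, so the 300 highest were near that share. The intervals treat promoters as independent draws, which the ends of a ranking and genes of the same family are not. Of the motifs known from ribosomal protein promoters, CTTTCC was in 17 of 38 of these against 26.0% of all promoters, and TTTCCG in 10 of 38 against 11.4%.

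**Figure D4:**
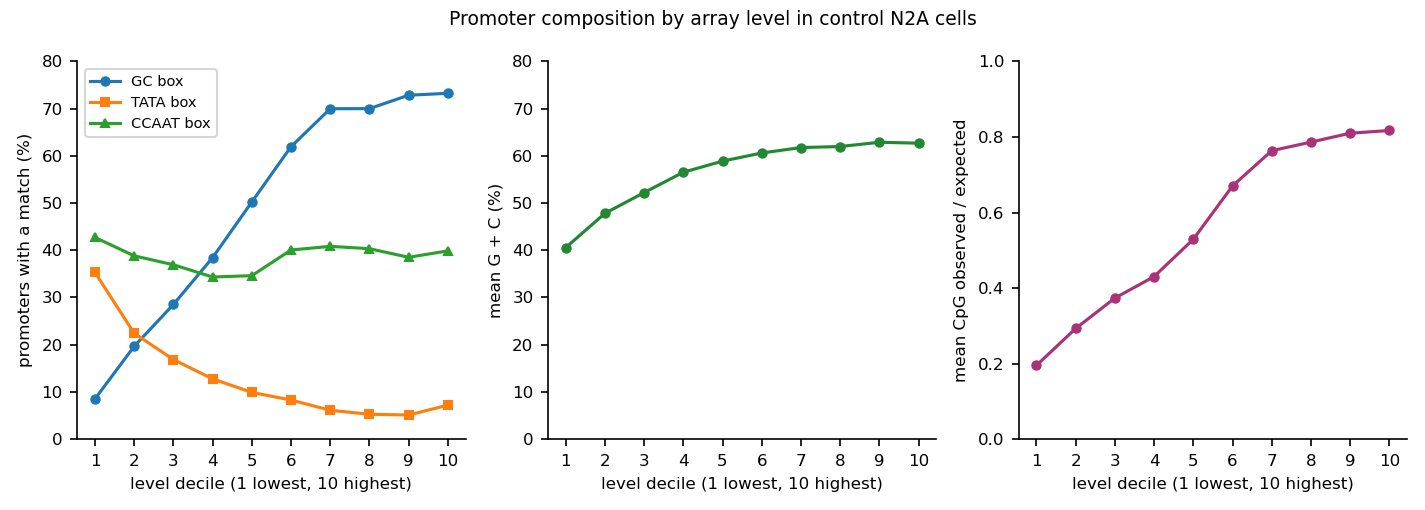
Share of promoters with a GC box, TATA box or CCAAT box (left), mean G + C content (middle) and mean ratio of observed to expected CpG (right), on the y axes, by decile of the mean control level (x axis, 1 lowest to 10 highest; 1293 or 1294 promoters each). GC box share, G + C and CpG rise with level up to about the seventh decile. The TATA box share falls from 35.3% to 5.10% in the ninth decile and is 7.19% in the tenth.

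The spread between arrays was small for most genes and concentrated in replicate 1. The median SD was 0.0832 over all symbols, and 26 of the 13171 symbols above the Olfr reference had an SD over 0.5. For 215 symbols replicate 1 lay more than 0.5 above the mean of the other arrays and for 36 more than 0.5 below. The same counts were 8 and 34 for replicate 2, and 1 and 15 for replicate 3. Among the 20 largest SDs, replicate 1 was highest for 19 and lowest for 1.
Tceal1 led with 10.97, 9.14 and 9.39, and Dcun1d5 read 11.65, 10.17 and 10.34. Hmgb2, a chromatin protein of dividing cells, read 12.33, 11.33 and 11.29. Rny3, a Y RNA, went the other way with 11.62, 12.82 and 12.65.
Of 55 small structural RNAs above the Olfr reference, 37 (67.3%) were lowest on replicate 1 and 10 highest there, against 50.6% lowest among all 13171 symbols. Among the 42 small nucleolar RNAs the count was 24 lowest and 10 highest, with Snord47 one of those highest there. Among the other 13, all 13 were lowest on replicate 1, including Terc, the telomerase RNA (12.48, 13.10 and 12.93), and Rpph1, the RNA of RNase P (13.11, 13.68 and 13.64). Of the symbols more than 0.5 below on replicate 1, 10 of 36 were not protein coding, and of those more than 0.5 above, 10 of 215, against 4.30% of all 13171. This comparison was prompted by the data, and RNA quality on the arrays was not tested.

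**Figure D5:**
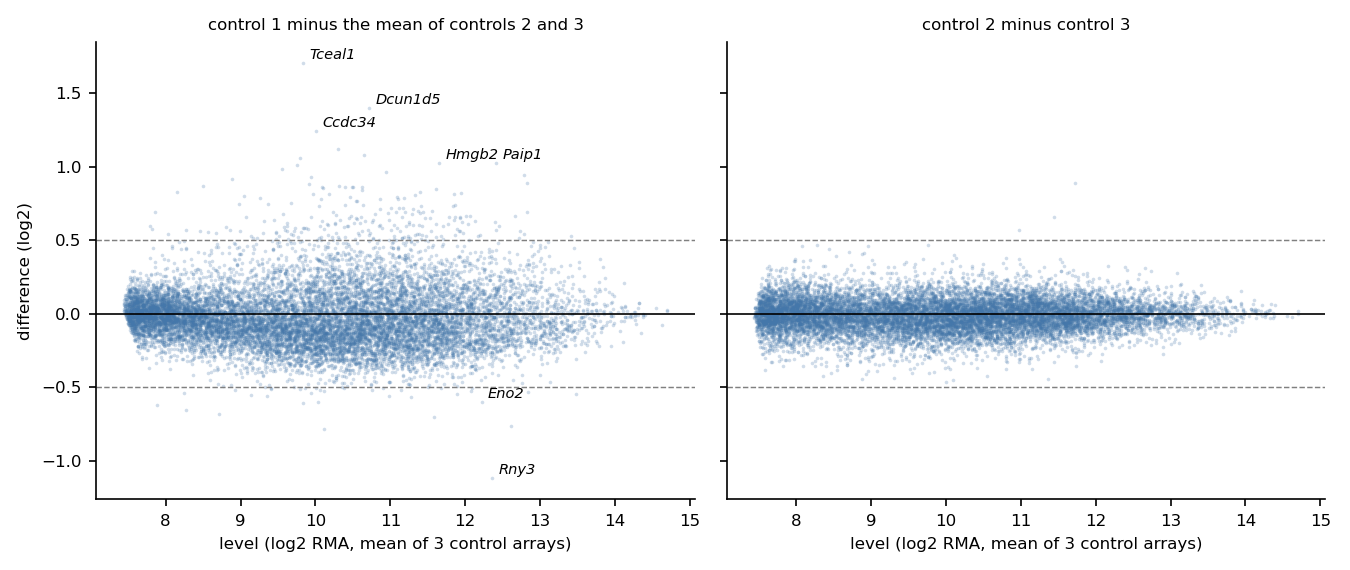
Difference in log2 level (y axis) between control 1 and the mean of controls 2 and 3 (left) and between controls 2 and 3 (right), against the mean level (x axis), for the 13171 symbols above the Olfr reference. Dashed lines mark 0.5 up and down; 251 points lie outside them on the left and 3 on the right.

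The lineage lists kept their counts without replicate 1. A call needs every array, so dropping 1 array could lower a count only through a changed choice of row. Equal counts therefore say little about how far the lists rest on replicate 1. There, 16 of 18 sympathoadrenal factors, 12 of 15 catecholamine genes, 11 of 17 vesicle genes and 25 of 28 pan-neuronal genes were above the Olfr reference, the same counts as with all arrays. Of the 421 different genes in all lists, 8 changed their call. The median percentile of a list differed by at most 4.15 between single arrays.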

How the data were processed

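RNA of 3 control cultures was hybridised to Affymetrix Mouse Gene ST arrays. The deposited log2 values were made by the authors with RMA background correction, quantile normalisation and summary at gene level. The submitters' processing notes name RMA and limma and give no version. The values used ran from 3.18 to 14.89. Quantile normalisation hides a difference shared by most transcripts. No detection call was used, and having 3 arrays limits the precision.

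Of 35556 rows, the platform table gave 1 gene symbol for 21789 and several for 1621, and did not list 12146. Entrez identifiers of 21698 rows were found in RefSeq (GRCm38.p6), which was used for current names, chromosomes and promoter sequence only. No source used here names the array's own build. Of 19938 symbols, 999 had several rows, and the row with the highest mean was used. For 232 symbols the rows differed by more than 2.

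The 33 gene lists held 477 entries, of which 438 were measured, and the other genes were not analysed here. Members and lists were chosen with earlier results of these data known. The text names the highest and lowest genes and families, up to 10 members of a list with those at or under the reference, the largest SDs, and Dbh, Hand2 and Chga. Malat1, Tug1, Gas5, Norad, Snora52, Sult4a1, Ifi30, Cyp51, Kcnma1 and the promoters printed were chosen after their values were seen. The calls and the motif search were tested on simulated data. Python 3.11.15, pandas 2.3.3, R 4.3.3 and limma 3.58.1 (cyclic loess) were used. Alternatives were other reference levels, row choices, normalisations, family sizes, promoter set sizes and leaving out each array.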

Additional observations from a re-analysis of the deposited data

How the results depend on the processing

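The counts above the Olfr reference of all symbols and of the sympathoadrenal, catecholamine, vesicle, pan-neuronal and proliferation lists stayed within 1.5 times under every alternative run. Counts near the size of a list, such as 28 of 28 proliferation genes, could not rise by that much. The catecholamine list fell to that bound, from 12 of 15 to 8, with the 99th percentile of Olfr and with the other-tissue reference. With the latter its share was 53.3%, near the 50.1% of all symbols. Leaving out 1 array gave 13210 to 13313 symbols in all, where a call had fewer arrays to pass. The pooled 8 non-neural lists moved from 36 of 82 genes to 17 with the 99th percentile of Olfr. The count was 67 with the 95th percentile of vomeronasal receptors and 12 with the other-tissue reference, which was added after the data were seen. The last count is largely set by construction, because 49 of the 82 genes define that reference. Over all 19938 symbols the counts were 13171, 10681, 16102 and 9989 in the same order. The non-neural share was thus not under that of all symbols with the vomeronasal reference. It was under it with the other settings named here. Of the 15 highest and 15 lowest families, only 5 and 4 had 20 symbols or more, and all of these remained when smaller families were left out. Those counts are set by the size limit and do not measure how stable the family order is. Of the 30 highest symbols, 4 remained when rows with several symbols were ranked too. The median SD ran from 0.0505 to 0.0786 when 1 array was left out, and the low value is that without replicate 1. TATAAA was in 7.7% of the 1000 highest promoters, against 12.3% of the 300 highest. The X-linked share was 44.4% with the 99th percentile of Olfr, when the autosomal share was 59.5%, over the symbols counted by chromosome. Of the 28 other lists, 15 moved by over 1.5 times with the 99th percentile, 9 with vomeronasal receptors and 22 with the other-tissue reference. Several of their counts were small, such as 1 of 11 macrophage genes, where a change of few genes passes that bound. The causes were not tested. Promoters with any listed start and the TGACG motifs were also added after the data were seen. Protein features were not run, because no protein sequences were used here. No paired analysis was possible because only 1 group entered, so the replicate numbers had no partner.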
